A study of Rattus norvegicus with 54 samples.

Results

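Livers of Wistar rat foetuses were compared between day 16 (F16) and day 20 (F20) of gestation, with all arrays titled as liver of these ages taken, which gave 8 of the 54 arrays of the series. Each age had 4 arrays, every one from total RNA of a separate biological replicate hybridised to a GeneChip Rat Gene 1.0 ST array, a chip that reads each gene through probes along its exons. The series follows liver and skeletal muscle from foetal day 16 to 4 days after birth (F22, P1 and P4 being the later ages), with adult liver besides. Foetuses were delivered by Caesarean section from Wistar mothers and the tissues were snap-frozen. The labels name no allele, diet or agent, and age was the only labelled difference between F16 and F20. Sex was not given, and whether foetuses of an age shared a litter was not given in the sources used here. If they did, the p-values measure only the spread between these samples. Values are RMA signals on a log2 scale, so that a difference of 1 is a 2-fold change, and a gene was called when limma's p, adjusted by the Benjamini-Hochberg method over 15310 probe sets, was at most 0.05. The verbs rose and fell are used only for genes that passed.

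In the foetus, the liver is the main site of blood formation. Hepatoblasts, the common precursors of hepatocytes and bile duct cells, lie among islands of maturing red cells, and the stroma around them is formed by stellate cells, mesothelium and sinusoidal endothelium. Towards term the hepatocytes take up the adult tasks of the liver (plasma protein secretion, urea formation, fat oxidation and bile formation), while blood formation moves to the bone marrow.

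The 8 arrays had median levels from 7.06 to 7.13 over all probe sets. Mean correlations across probe sets were 0.994 to 0.996 with arrays of the same age and 0.983 to 0.989 with arrays of the other age. Defining liver genes were high on every array. The level of *Alb*, the main plasma protein, was 13.70, 13.68, 13.74 and 13.70 on the F16 arrays and 13.80, 13.74, 13.80 and 13.75 on the F20 arrays, and that of *Afp*, its foetal counterpart, was 13.48, 13.45, 13.54 and 13.48 on the F16 arrays and 13.60, 13.59, 13.58 and 13.56 on the F20 arrays. Several arrays also carried transcripts of other tissues. The mean level of 17 skeletal muscle markers was 7.37, 6.55, 7.47 and 8.13 on the F16 arrays (replicates 1 to 4) and 8.05, 6.72, 6.71 and 6.73 on the F20 arrays. *Myh3*, embryonic myosin, had levels of 8.07, 6.28, 8.31 and 8.93 at F16 and 8.78, 6.40, 6.10 and 6.30 at F20, and *Actc1*, cardiac actin, had levels of 9.59, 6.74, 9.71 and 11.19 at F16 and 10.24, 7.25, 7.62 and 7.09 at F20. Thus F16 replicates 1, 3 and 4 and F20 replicate 1 stood above the others. Of the 17 muscle markers, 3 fell and 1 rose between the ages. F20 replicate 3 stood apart in some gut and pancreas genes. There 11 intestinal markers averaged 7.96 against 6.38 to 6.64 on the other 7 arrays, and 19 acinar pancreas markers averaged 7.24 against 6.39 to 6.62. On that array 6 of the intestinal and 4 of the pancreatic markers stood more than 1 above their median over the 8 arrays. *Cdh17*, an intestinal cadherin, reached 8.98 on that array against 4.87 to 5.42 on the other 7. Among the intestinal markers 2 rose, *Fabp2* and *Guca2b*, and among the pancreatic ones 1 rose, *Cpb1*. None of these overlapped between the ages. Of the F20 arrays, replicate 3 was the highest for *Fabp2* (7.59) and the lowest for *Cpb1* (6.26). *Cdh17* did not pass. Markers of stomach, lung and kidney passed the test in neither direction and their means stayed between 5.95 and 6.44. Whether these tissues contributed to any change below was not tested. Values without the arrays concerned are given for some results that they moved, not for all of them.

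**Figure D1:**
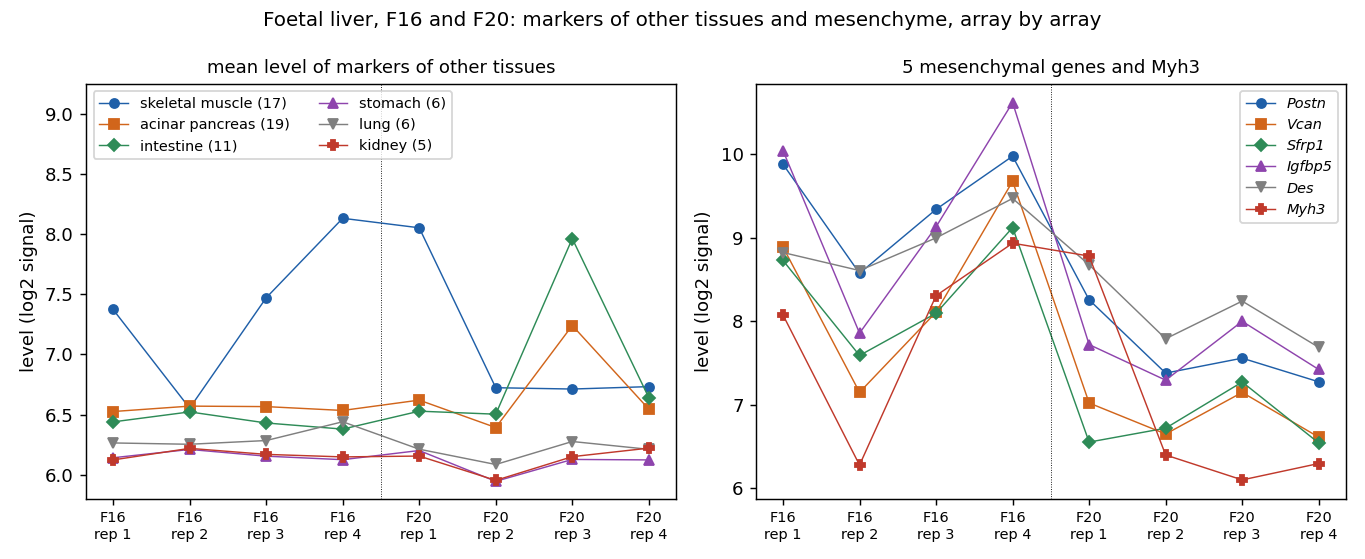
Left, mean level (log2 signal) of markers of 6 other tissues on each of the 8 foetal liver arrays, with the number of markers in brackets. Right, levels of 5 mesenchymal genes and of *Myh3* on the same arrays. Muscle markers are high on F16 replicates 1, 3 and 4 and F20 replicate 1, intestinal and pancreatic markers on F20 replicate 3, and the mesenchymal genes are highest on F16 replicate 4.

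From F16 to F20, 1259 of 14506 genes rose (8.68%) and 1740 fell (12%), together 2999 (20.7%). The counts of gene lists below are to be read beside these shares, and a count near them says little about its list. In terms of probe sets, 1298 rose (8.48%) and 1825 fell (11.9%). The median change over all genes was -0.041 on the log2 scale. Rises were larger than falls: 169 genes rose more than 2-fold (1.17%) and 41 fell more than 2-fold (0.283%). The falls over 2-fold were fewer than the rises under every setting run, but their number depended on the arrays: it was 63 without F16 replicate 2, 28 without F16 replicate 4 and F20 replicate 3, 25 with F16 replicate 2 set against F20 replicates 2 and 4, and 11 among bright probe sets. The arrays of both ages did not overlap for 4278 genes (29.5%). All falls together also depended on the arrays: 1091 genes fell when F20 replicates 1 and 3 were left out and 1150 when F16 replicate 4 and F20 replicate 3 were left out.

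Hepatocyte genes made up much, though not all, of the steepest rises. *Cps1*, the enzyme that brings ammonia into the urea cycle, had levels of 7.70, 7.62, 7.13 and 7.47 on the F16 arrays and 12.14, 12.16, 12.11 and 12.08 on the F20 arrays, a change of 4.64 ± 0.13 (SE, adjusted p = 3.2e-15) or 25-fold. The level of *Car12*, a membrane carbonic anhydrase, was 6.31, 6.41, 6.24 and 6.42 on the F16 arrays and 10.19, 10.41, 10.09 and 10.36 on the F20 arrays, a change of 3.92 ± 0.29 (SE, adjusted p = 9.7e-09). Its mean in adult liver was 6.91. *Hp*, the haemoglobin-binding plasma protein haptoglobin, stood at 7.66, 7.47, 7.41 and 7.64 on the F16 arrays and 10.81, 10.93, 10.89 and 10.94 on the F20 arrays, a change of 3.35 ± 0.073 (SE, adjusted p = 1.0e-16). None of these genes overlapped between the ages, and the gap between the groups was far wider than the spread within either. *Fabp1*, the liver fatty acid-binding protein, had levels of 7.60, 7.52, 8.13 and 7.10 on the F16 arrays and 10.53, 10.65, 10.76 and 10.82 on the F20 arrays (change 3.10 ± 0.19). *Slc17a1*, a phosphate and urate transporter, had levels of 6.53, 6.53, 6.62 and 6.15 on the F16 arrays and 9.39, 9.43, 9.30 and 9.47 on the F20 arrays (change 2.94 ± 0.11). All adjusted p-values of these 5 genes were 9.7e-09 or lower.

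The remaining 10 of the 15 steepest rises included the homocysteine methyltransferase *Bhmt2* (2.79 on the log2 scale), the retinol-binding *Rbp2* (2.70) and the cytochrome P450 *Cyp2c22* (2.66). Among them were also the inter-alpha-trypsin inhibitor chains *Itih3* (2.47) and *Itih4* (2.21), the copper-binding ceruloplasmin *Cp* (2.42) and the HDL-bound esterase *Pon1* (2.41). The others were the urate oxidase *Uox* (2.33), the macrophage scavenger receptor *Cd163* (2.31) and the bile salt export pump *Abcb11* (2.25). *Rbp2* rose in skeletal muscle of the same ages as well, by 3.35 ± 0.31, and the difference between the tissues did not pass (-0.64 ± 0.44, adjusted p = 0.294). Its mean in adult liver was 6.13. *Cd163* and *Uox* rose in muscle too, by 1.14 and 0.59, less than in liver (differences 1.17 and 1.74, both past the threshold), and *Cp* changed there by -0.29, a fall.

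The steepest falls were of another kind. *Asb4*, an ankyrin repeat gene active in the embryo, had levels of 8.84, 7.89, 8.35 and 8.91 on the F16 arrays and 6.54, 6.66, 6.59 and 6.68 on the F20 arrays, a change of -1.88 ± 0.16 (SE, adjusted p = 4.7e-08). *Abcb1b*, a drug efflux pump, had levels of 8.57, 8.88, 8.47 and 8.57 on the F16 arrays and 6.75, 7.22, 6.98 and 6.90 on the F20 arrays, a change of -1.65 ± 0.13 (SE, adjusted p = 2.2e-08). Both fell with no overlap between the ages. *Vof16* had levels of 7.99, 6.39, 7.49 and 8.69 on the F16 arrays and 5.67, 5.57, 6.16 and 5.51 on the F20 arrays, a change of -1.91 ± 0.33. The chromatin protein *Macroh2a2* changed by -1.39 ± 0.15, the lysophosphatidic acid receptor *Lpar4* by -1.35 ± 0.17, the neuronal calcium sensor *Vsnl1* by -1.25 ± 0.13 and *Pdzk1ip1*, a small membrane protein, by -1.51 ± 0.13. Matrix and growth factor genes of mesenchyme made up much of the rest and are described with the stroma below. The muscle markers moved with many of these falls. Of the 15 steepest, 11 were lowest on replicate 2 and highest on replicate 4 among the F16 arrays, as the mean of the muscle markers was, against 0 of the 15 steepest rises, 1668 of all 14506 genes tested and 390 of all 1740 that fell. With F16 replicate 2 set against F20 replicates 2 and 4, 8 of the 15 falls and 15 of the 15 rises still passed, and *Vof16* changed by -0.85 ± 0.36 without passing (adjusted p = 0.237). That comparison has a single F16 array, taken to vary like the other groups, and the part of muscle in the falls was not tested.

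**Figure D2:**
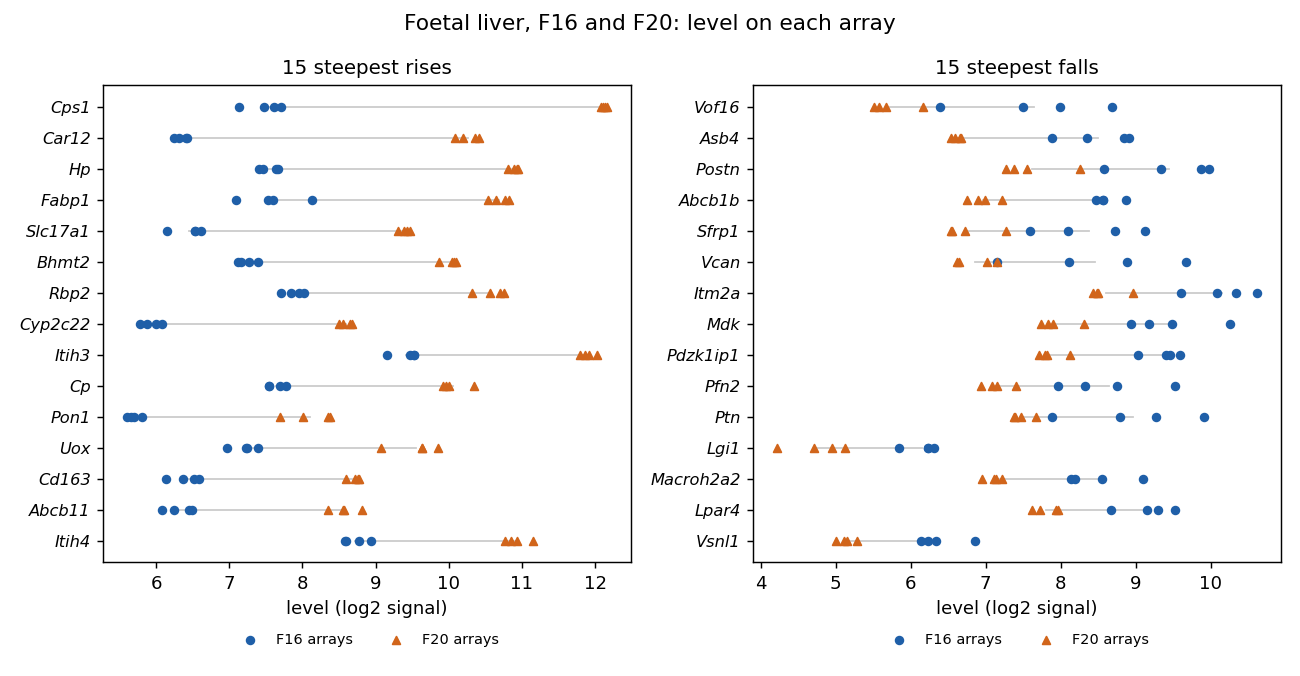
Level (log2 signal) on each of the 4 F16 and 4 F20 arrays for the 15 genes that rose most and the 15 that fell most, in order of the change, with a grey line between the group means. The rises span up to 4.64 (*Cps1*) and the falls up to 1.91 (*Vof16*), and F16 arrays are more scattered among the falls.

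Promoter stretches of 4 of the 15 genes that rose most are shown because they hold short words known from binding sites of liver transcription factors. Windows ran from 250 bases before to 50 after the start site (RefSeq, build GRCr8), and the capitals mark the matching word.
Cps1: tttgtctccTGGACTTTGaagccattt
Rbp2: cagacctgtTGAACTTTGcaaaggcaa
Cyp2c22: ttcagtagtcTGTTTACttgttttgca
Fabp1: gactcactaaTGTTTGCtgaattagaa
The *Cps1* stretch lies at chr9:76063783-76063809 on the plus strand and holds CAAAGTCCA as its reverse complement. The *Rbp2* stretch, chr8:107963414-107963440 on the plus strand, holds CAAAGTTCA as its reverse complement. The *Cyp2c22* stretch, chr1:248980843-248980869 on the minus strand, holds TGTTTAC, and the *Fabp1* stretch, chr4:104749143-104749169 on the plus strand, holds TGTTTGC, which overlaps a match to TTGCNNAAT. Both strands were searched for 8 words. CAAAGTCCA stood in 0.375% of 27457 promoters, in 1.18% of the 1019 promoters of genes that rose and in 0.14% of the 1426 of genes that fell. Of the 11968 promoters of genes tested, from which the called genes came, 0.393% held it. For all promoters, genes tested, rises and falls in turn the shares were 0.295%, 0.326%, 0.687% and 0.14% for CAAAGTTCA, 3.76%, 2.87%, 3.93% and 1.82% for TGTTTAC, and 4.8%, 3.88%, 4.81% and 3.16% for TGTTTGC. They were 2.63%, 2.44%, 2.75% and 1.54% for TTGCNNAAT, 0.787%, 0.56%, 0.294% and 0.14% for ATCAATAA, 0.197%, 0.267%, 0.196% and 0.281% for TTGCGCAA, and 53.5%, 49.9%, 55.1% and 45.3% for CAAAG, which is part of both 9-base words. Longer words were looked at as well, and the stretches printed were chosen after their matches had been seen. These shares describe letters in a window and were not tested.

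Secreted proteins rose widely. Of 28 plasma proteins 21 rose and 0 fell (median change 0.48), and of 31 complement and coagulation factors 24 rose and 0 fell (median 0.64). *Azgp1*, a zinc-binding lipid-mobilising protein, changed by 1.96 ± 0.17 and *Apcs*, serum amyloid P, by 1.52 ± 0.17. Smaller rises were those of the carriers transferrin *Tf*, by 0.43 ± 0.046, and transthyretin *Ttr*, by 0.33 ± 0.043, whereas *Alb* (0.068 ± 0.042, adjusted p = 0.29) and *Afp* (0.094 ± 0.046, adjusted p = 0.175) did not pass. The groups of *Alb* and *Afp* did not overlap. Both lay near the highest level of any probe set on these arrays (14.045 to 14.109), and whether this limit hid a rise was not tested. *C9*, the last component of the membrane attack complex, had levels of 7.04, 7.16, 7.05 and 6.79 on the F16 arrays and 9.18, 9.01, 8.92 and 9.44 on the F20 arrays, a change of 2.13 ± 0.27 (SE, adjusted p = 1.0e-05). Its partner *C8b* changed by 1.23 ± 0.085, the central component *C3* by 1.01 ± 0.051, plasma kallikrein *Klkb1* by 1.61 ± 0.11, prothrombin *F2* by 0.99 ± 0.067, the fibrinogen chains *Fgg* and *Fgb* by 1.11 ± 0.059 and 0.54 ± 0.052, and antithrombin *Serpinc1* by 0.69 ± 0.051. All of these rose without overlap between the ages.

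Among 22 hepatocyte transcription factors 10 rose and 1 fell (median 0.22). The lipid-sensing receptor *Ppara* had levels of 9.76, 9.85, 9.97 and 9.61 on the F16 arrays and 10.88, 10.93, 10.80 and 10.93 on the F20 arrays, a change of 1.09 ± 0.072 (SE, adjusted p = 1.9e-09). The xenobiotic receptor *Nr1i2* changed by 1.01 ± 0.099, the bile acid receptor *Nr1h4* by 0.71 ± 0.12, the oxysterol receptor *Nr1h3* by 0.62 ± 0.11, *Creb3l3* by 0.62 ± 0.11 and *Cebpa*, a factor of hepatocyte maturation, by 0.42 ± 0.08. *Tbx3*, a factor of hepatoblast growth, fell by 0.77 (SE 0.15). *Hnf4a*, the central hepatocyte factor, changed by 0.17 ± 0.083 with overlapping groups and *Nr1i3* by -0.03 ± 0.27, neither past the threshold. Of 17 hormone receptors and hormone-responsive genes 7 rose and 0 fell. *Hsd11b1*, which turns inactive into active glucocorticoid, had levels of 6.51, 6.88, 6.64 and 6.50 on the F16 arrays and 8.65, 8.79, 8.57 and 8.92 on the F20 arrays, a change of 2.10 ± 0.10 (SE, adjusted p = 3.0e-11). The thyroid hormone receptor *Thrb* changed by 1.20 ± 0.17, the adrenergic receptor *Adra1b* by 1.07 ± 0.10, the deiodinase *Dio1* by 0.81 ± 0.19 and *Egfr* by 0.71 ± 0.18.

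Nitrogen metabolism rose in part. Of 7 urea cycle genes 4 rose: beside *Cps1* they were *Arg1* (1.61 ± 0.10), which splits arginine, *Ass1* (1.21 ± 0.11), which joins citrulline and aspartate, and *Otc* (0.77 ± 0.12), which forms citrulline. Of 21 amino acid breakdown genes 12 rose and 0 fell, among them *Ftcd* of histidine (1.58 ± 0.12), the liver glutaminase *Gls2* (1.36 ± 0.15), *Agxt* of glyoxylate (1.03 ± 0.12), and *Hgd* (1.08 ± 0.10), *Fah* (0.88 ± 0.13) and *Hpd* (0.42 ± 0.075) of tyrosine. *Tat*, which begins tyrosine breakdown, had levels of 5.66, 4.99, 5.35 and 5.36 on the F16 arrays and 5.34, 5.47, 4.91 and 5.66 on the F20 arrays, and *Tdo2*, which begins tryptophan breakdown, had levels of 4.82, 4.79, 4.84 and 4.87 on the F16 arrays and 4.97, 4.89, 4.57 and 4.93 on the F20 arrays. Both overlapped between the ages and did not pass. Of 18 genes of methionine, choline and one-carbon metabolism 10 rose and 1 fell. *Bhmt*, which remethylates homocysteine from betaine, had levels of 10.73, 10.72, 10.38 and 10.37 on the F16 arrays and 12.60, 12.69, 12.45 and 12.51 on the F20 arrays (change 2.01 ± 0.11). *Dmgdh* of choline breakdown changed by 2.04 ± 0.13, the glycine methyltransferase *Gnmt* by 1.95 ± 0.22, *Mat1a*, the S-adenosylmethionine synthase of adult liver, by 1.84 ± 0.10 and *Cth* of cysteine synthesis by 1.27 ± 0.23. The gene that fell was *Mat2a*, the synthase of growing cells (-0.63).

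Carbohydrate genes divided by task. Of 13 glycogen genes 7 rose and 1 fell. The liver glycogen synthase *Gys2* had levels of 9.96, 10.09, 9.82 and 9.73 on the F16 arrays and 11.36, 11.38, 11.18 and 11.42 on the F20 arrays, a change of 1.43 ± 0.16 (SE, adjusted p = 3.4e-06), and the branching enzyme *Gbe1* (1.42 ± 0.28), *Pgm1* (1.34 ± 0.12) and the liver phosphorylase *Pygl* (1.04 ± 0.12) rose as well. Of 11 gluconeogenic genes 6 rose and 0 fell. *Fbp1*, fructose bisphosphatase, changed by 1.59 ± 0.10, and the glucose 6-phosphate transporter *Slc37a4* by 0.80 ± 0.072. *Pck1*, which sets the pace of gluconeogenesis, had levels of 6.74, 6.55, 6.60 and 6.47 on the F16 arrays and 6.41, 6.31, 6.69 and 6.57 on the F20 arrays and did not pass (adjusted p = 0.845). Of 25 genes of glycolysis and sugar entry 4 rose and 3 fell, against 8.68% and 12% of all genes, with a median of -0.011. The liver sugar transporter *Slc2a2* (1.13 ± 0.083), the liver pyruvate kinase *Pklr* (0.57 ± 0.11), *Pfkfb1* (1.20 ± 0.15) and fructokinase *Khk* (0.80 ± 0.11) rose. The high-affinity transporter *Slc2a3* (-0.68 ± 0.14) fell, and the list had 1 fall without F20 replicate 2.

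Fat oxidation rose as a block of moderate changes. Of 19 mitochondrial fatty acid oxidation genes 17 rose and 0 fell, with a median of 0.57 and no member over 2-fold. *Cpt2*, the inner carnitine transferase, had levels of 9.43, 9.35, 9.38 and 9.33 on the F16 arrays and 10.23, 10.18, 10.11 and 10.23 on the F20 arrays, a change of 0.82 ± 0.06 (SE, adjusted p = 9.5e-09). *Echs1* (0.79 ± 0.12), *Decr1* (0.78 ± 0.067), *Hadh* (0.70 ± 0.092), *Acaa2* (0.68 ± 0.11), *Acads* (0.65 ± 0.077) and *Acadm* (0.44 ± 0.10), enzymes of the chain-shortening cycle, followed. *Cpt1a*, the carnitine transferase that admits fatty acids to the mitochondrion, had levels of 7.79, 7.80, 8.11 and 8.00 on the F16 arrays and 7.83, 8.06, 7.96 and 8.17 on the F20 arrays and did not pass (adjusted p = 0.823). Of 3 ketone body genes 0 passed limma's adjusted p, 1 had an unadjusted p under 0.05, and 2 rose without F16 replicate 2 or with array weights. Of 17 peroxisomal genes 11 rose and 0 fell, including *Acox2* (1.42 ± 0.11) and *Phyh* (1.15 ± 0.05) of branched-chain acids and *Ehhadh* (0.95 ± 0.17).

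Among the lists of lipid synthesis and lipoprotein assembly the rises were most frequent in lipoprotein assembly. Of 18 genes of fatty acid and triglyceride synthesis 8 rose and 0 fell, among them *Pnpla3* (1.08 ± 0.17), *Dgat2* (0.87 ± 0.069) and *Gpam* (0.79 ± 0.083). Without F16 replicate 4 and F20 replicate 3 the number was 5. *Fasn*, fatty acid synthase, changed by 0.51 ± 0.18 (SE, adjusted p = 0.0497), and its call was lost on leaving out any one of the 8 arrays. Of 19 cholesterol synthesis genes 5 rose and 0 fell (median 0.35). This count was 15 when the 8 arrays were fitted alone, and 3 without F20 replicate 1, 2 or 4 or any one F16 array. *Mvd* (0.49 ± 0.068) rose, whereas *Lss* (0.89 ± 0.29) and *Insig1* (1.29 ± 0.42) lost their calls on leaving out any one of the 8 arrays. Of 17 apolipoprotein and lipoprotein assembly genes 12 rose and 0 fell. *Apoc3*, which slows triglyceride clearance, had levels of 10.24, 10.53, 10.16 and 10.23 on the F16 arrays and 11.34, 11.45, 11.05 and 11.36 on the F20 arrays (change 1.01 ± 0.11), and *Apoe* (0.63 ± 0.07), *Apob* (0.55 ± 0.057) and *Apoa1* (0.34 ± 0.052) rose less.

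Genes of bile and drug handling rose in part. Of 20 bile acid genes 9 rose and 0 fell. *Abcb11* had levels of 6.08, 6.49, 6.25 and 6.45 on the F16 arrays and 8.55, 8.57, 8.35 and 8.81 on the F20 arrays, a change of 2.25 ± 0.12 (SE, adjusted p = 1.0e-10). *Slc10a1*, the bile salt uptake transporter, had levels of 8.25, 8.11, 7.84 and 7.98 on the F16 arrays and 10.18, 10.17, 9.52 and 10.27 on the F20 arrays, a change of 1.99 ± 0.14 (SE, adjusted p = 3.1e-09), with F20 replicate 3 the lowest of its group. *Cyp7a1*, the rate-limiting enzyme of bile acid synthesis, had levels of 6.15, 6.12, 6.03 and 5.53 on the F16 arrays and 6.78, 7.05, 6.89 and 6.87 on the F20 arrays and did not pass (adjusted p = 0.0683), although it did with the 8 arrays alone (adjusted p = 0.000688). Of 31 phase I genes 10 rose and 1 fell, led by *Cyp2c22* with levels of 5.88, 6.01, 5.78 and 6.08 on the F16 arrays and 8.56, 8.50, 8.66 and 8.67 on the F20 arrays, *Cyp2f4* (2.06 ± 0.13) and *Cyp2a1* (1.16 ± 0.14). *Cyp2e1*, the ethanol-oxidising enzyme, overlapped between the ages (0.37 ± 0.44) and did not pass. The median of this list was 0.31, but 0.14 without F16 replicate 4. Of 22 phase II genes 12 rose and 1 fell, with *Ugt2b1* (1.75 ± 0.32), *Sult1a1* (1.65 ± 0.12) and *Sult2a2* (1.62 ± 0.18) at the top. The fall, *Gstp1*, a glutathione transferase of immature liver, was lost without F16 replicate 1, 3 or 4 or F20 replicate 3 or 4.

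The growth factor axis moved both ways. Of 17 genes 5 rose and 4 fell. The growth hormone receptor *Ghr* (0.87 ± 0.062) rose. *Igf1*, the postnatal growth factor, had levels of 10.10, 9.15, 9.92 and 10.38 on the F16 arrays and 9.06, 8.94, 9.06 and 8.97 on the F20 arrays, a change of -0.88 ± 0.18 (SE, adjusted p = 0.00151). Like the muscle markers it was lowest on F16 replicate 2 and highest on F16 replicate 4, and with F16 replicate 2 set against F20 replicates 2 and 4 its change was -0.20 ± 0.21 (adjusted p = 0.69), so that its fall was lost there. Its receptor *Igf1r* changed by -0.47 ± 0.094, and by -0.21 with F16 replicate 2 set against F20 replicates 2 and 4. *Igf2*, the foetal growth factor, rose by 0.34. Of 15 foetal RNA-binding, HMGA and imprinted genes 2 rose (1 without F16 replicate 4) and 7 fell (median -0.28). The imprinted *Nnat* (-1.16 ± 0.22) and *Plagl1* (-0.76 ± 0.15), the chromatin proteins *Hmga2* (-0.71 ± 0.099) and *Hmga1* (-0.49 ± 0.09) and the RNA-binding *Igf2bp1* (-0.53 ± 0.097) fell. *Nnat*, *Plagl1* and *Hmga2* also followed the muscle markers in being lowest on F16 replicate 2 and highest on F16 replicate 4. With F16 replicate 2 set against F20 replicates 2 and 4 the list median was -0.14, and *Nnat* (-0.84 ± 0.38) and *Plagl1* (-0.39 ± 0.23) did not pass. The part of muscle in these falls was not tested. *Dlk1*, a hepatoblast marker, did not pass (-0.029 ± 0.13). Of 23 antioxidant genes 7 rose and 1 fell. The steepest rise was that of *Hmox1*, which breaks down haem (0.77 ± 0.16).

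**Figure D3:**
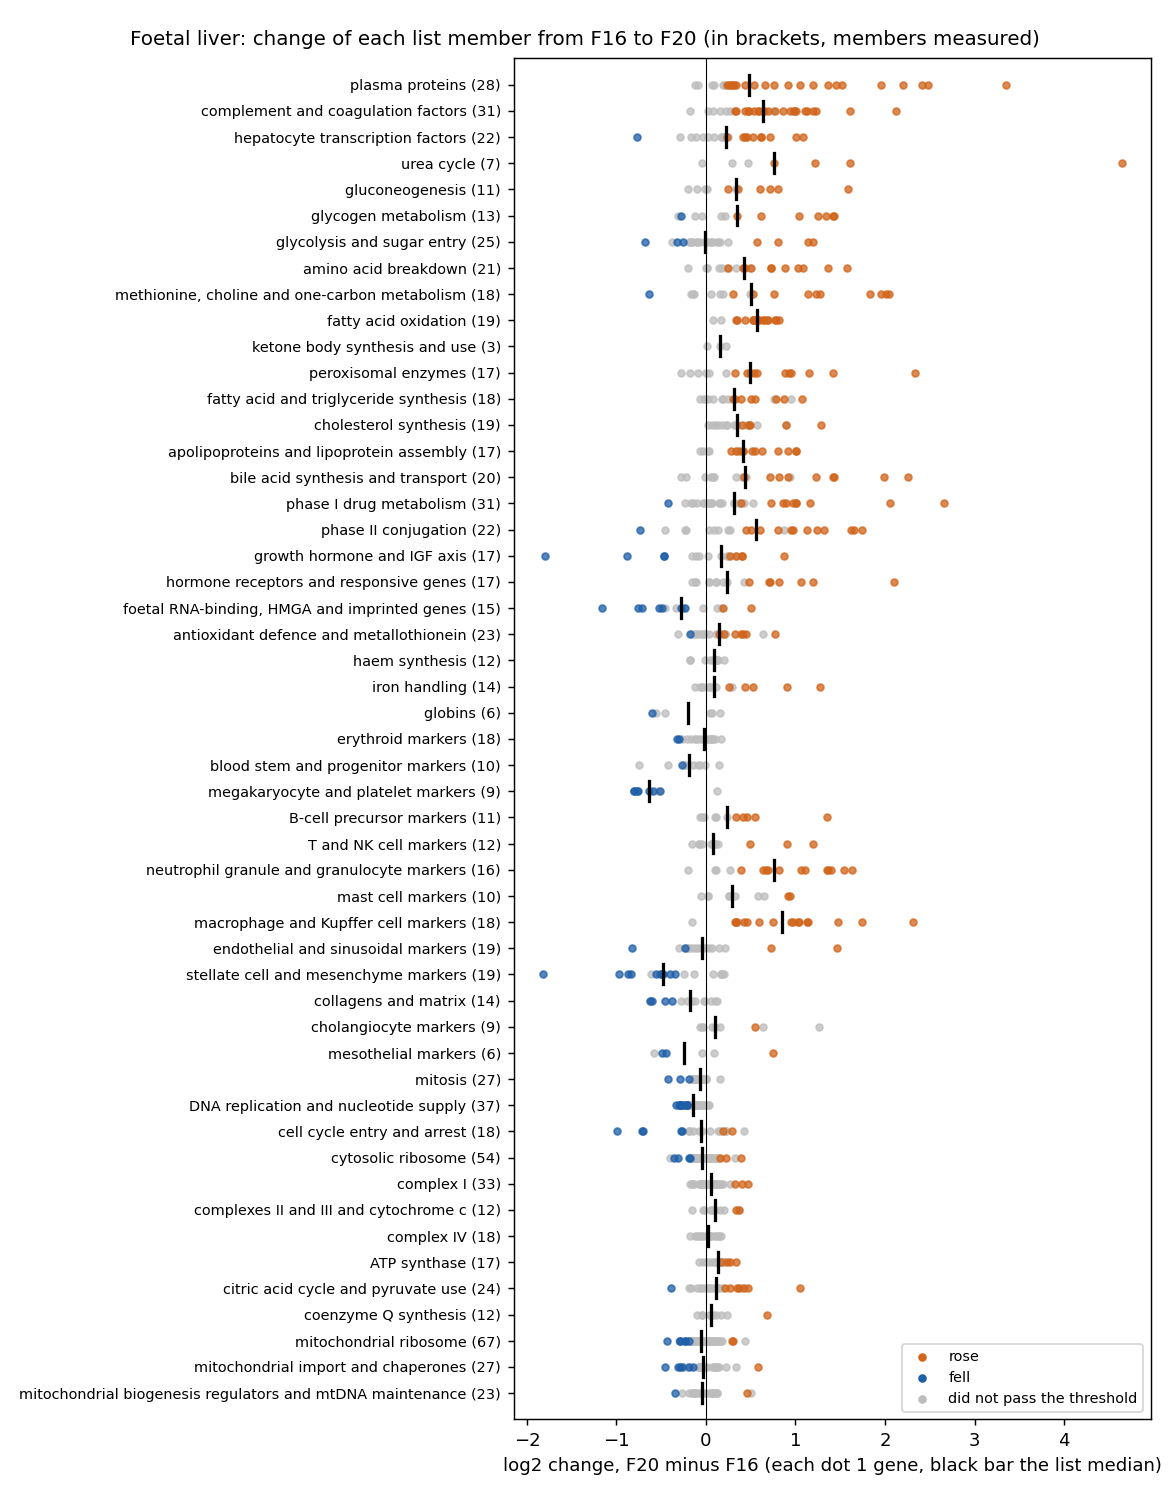
Change from F16 to F20 (log2 scale) of every measured member of 51 gene lists, 1 dot a gene, coloured by whether it rose, fell or did not pass the threshold, with a black bar at the list median. Hepatocyte lists lie mostly to the right of 0, megakaryocyte and stellate lists to the left, and the erythroid, cell cycle and respiratory chain lists close to 0.

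Red cell genes were nearly level. Of 18 erythroid markers 0 rose and 2 fell (median -0.022), against 8.68% and 12% of all genes. The 2 that fell were the erythroid factors *Klf1* (-0.32 ± 0.097), lost without F16 replicate 2 or F20 replicate 3, and *Tal1* (-0.30 ± 0.069). When F20 replicates 1 and 3 were left out, 0 fell. Of 12 haem synthesis genes 0 passed limma's test at an adjusted or an unadjusted p of 0.05, and 1 rose with array weights. *Alas2*, the red cell enzyme that starts haem synthesis, had levels of 12.78, 12.70, 12.79 and 12.72 on the F16 arrays and 12.84, 12.95, 12.85 and 12.85 on the F20 arrays. *Slc4a1*, the red cell anion exchanger, had levels of 13.03, 13.05, 13.002 and 12.98 on the F16 arrays and 13.002, 12.98, 12.94 and 12.98 on the F20 arrays, with overlapping groups. Among 6 globins the embryonic *Hbe2* fell (-0.61 ± 0.14 (SE, adjusted p = 0.00443)), and *Hbe1*, also embryonic, changed by -0.45 ± 0.33 without passing, although its groups did not overlap and it passed with the 8 arrays alone (adjusted p = 0.000411). In such bulk samples fewer cells of a type and less RNA per cell cannot be told apart, which holds for all lists of cell types here. Of 14 iron genes 5 rose and 0 fell, with *Hjv*, a co-receptor of the hepcidin pathway, at 8.08, 8.05, 8.05 and 8.05 on the F16 arrays and 9.40, 9.43, 9.23 and 9.28 on the F20 arrays (change 1.28 ± 0.22). The iron exporter *Slc40a1* rose (0.53 ± 0.071), while hepcidin itself, *Hamp*, had levels of 8.03, 7.92, 7.49 and 7.90 on the F16 arrays and 7.77, 7.79, 7.89 and 7.76 on the F20 arrays and did not pass.

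White cell and platelet genes separated. Of 18 macrophage and Kupffer cell markers 16 rose and 0 fell (median 0.85). In skeletal muscle of the same ages the median change of these markers was 0.57, against -0.056 over all genes there. *Cd163* had levels of 6.36, 6.58, 6.52 and 6.14 on the F16 arrays and 8.76, 8.73, 8.60 and 8.77 on the F20 arrays, a change of 2.31 ± 0.13 (SE, adjusted p = 1.7e-10). *Clec4f*, a lectin of Kupffer cells, had levels of 6.59, 6.90, 6.84 and 6.67 on the F16 arrays and 8.44, 8.45, 8.50 and 8.56 on the F20 arrays, a change of 1.74 ± 0.14 (SE, adjusted p = 3.7e-08). *Cd5l* (1.47 ± 0.27), *C1qa* (1.14 ± 0.11), *Vsig4* (1.13 ± 0.27) and *Marco* (1.03 ± 0.16) rose as well, none with overlap. Of 16 neutrophil and granulocyte markers 12 rose and 0 fell (median 0.76). The granule protein *Ngp* had levels of 7.54, 7.47, 7.90 and 7.36 on the F16 arrays and 9.16, 9.54, 8.90 and 9.21 on the F20 arrays (change 1.63 ± 0.17), and *S100a8* (1.54 ± 0.24), *Elane* (1.37 ± 0.22) and *Mpo* (0.64 ± 0.16) rose with it. Of 9 megakaryocyte and platelet markers 7 fell and 0 rose (median -0.64). The platelet chemokine *Pf4* had levels of 10.28, 10.08, 10.20 and 10.26 on the F16 arrays and 9.31, 9.54, 9.28 and 9.58 on the F20 arrays, a change of -0.77 ± 0.10 (SE, adjusted p = 1.8e-05), and the adhesion receptor subunits *Gp1ba* (-0.81 ± 0.11), *Gp5* (-0.80 ± 0.12) and *Gp9* (-0.64 ± 0.085) fell alike. Among lymphoid and other lists 5 of 11 B-cell precursor markers rose, led by *Il7r* (1.35 ± 0.17), against 8.68% of all genes. Of 12 T and NK cell markers 3 rose, *Cd4* (1.19), *Nkg7* (0.91) and *Cd3g* (0.50), while the list median was 0.082. Of 10 mast cell markers 2 rose. Of 10 stem and progenitor markers 1 fell, *Lmo2* (-0.27 ± 0.063), against 12% of all genes, and 0 did without F20 replicates 1 and 3.

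Stromal genes were uneven, with falls most frequent among stellate cell and mesenchyme markers. Of 19 stellate cell and mesenchyme markers 10 fell and 0 rose (median -0.48). The matrix protein *Postn* had levels of 9.88, 8.57, 9.34 and 9.97 on the F16 arrays and 8.25, 7.38, 7.56 and 7.27 on the F20 arrays, a change of -1.82 ± 0.49 (SE, adjusted p = 0.011). *Vcan*, a matrix proteoglycan, had levels of 8.89, 7.15, 8.11 and 9.67 on the F16 arrays and 7.02, 6.65, 7.15 and 6.61 on the F20 arrays (change -1.60 ± 0.40), and the Wnt antagonist *Sfrp1* had levels of 8.73, 7.59, 8.09 and 9.12 on the F16 arrays and 6.55, 6.72, 7.27 and 6.54 on the F20 arrays (change -1.61 ± 0.25). The ages did not overlap for these 3 genes, but the lowest F16 and highest F20 level of *Vcan* were both 7.15. On the F16 arrays all 3 genes were lowest on replicate 2 and highest on replicate 4, the array with the most muscle marker signal, and the part of other tissue in their fall was not tested. The heparin-binding growth factors *Mdk* (-1.52 ± 0.20) and *Ptn* (-1.49 ± 0.25) and the platelet-derived growth factor receptors *Pdgfra* (-0.97 ± 0.18) and *Pdgfrb* (-0.83 ± 0.18) also fell. *Igfbp5* had levels of 10.04, 7.86, 9.13 and 10.62 on the F16 arrays and 7.72, 7.29, 8.00 and 7.42 on the F20 arrays, a change of -1.80 ± 0.37 (SE, adjusted p = 0.00145) with overlapping groups. *Mdk*, *Ptn*, *Pdgfra*, *Pdgfrb* and *Igfbp5* were likewise lowest on replicate 2 and highest on replicate 4 among the F16 arrays. A further comparison set F16 replicate 2 against F20 replicates 2 and 4. It leaves out the arrays high in muscle markers and F20 replicate 3 with its gut and pancreas markers. There the stellate median was -0.40. Changes were smaller there, at -1.25 for *Postn*, -0.52 for *Vcan*, -0.96 for *Sfrp1* and -0.50 for *Igfbp5*. They were -1.11 for *Mdk*, -0.46 for *Ptn*, -0.46 for *Pdgfra* and -0.71 for *Pdgfrb*. Of 14 collagen and matrix genes 4 fell, all with overlap, and 0 fell without F16 replicate 1, F16 replicate 4, F20 replicate 2 or F20 replicate 4. Of 19 endothelial markers 2 rose and 2 fell, near the shares of all genes (8.68% and 12%). Leaving out any one array other than F16 replicate 2 or F20 replicate 1 lost 1 of these falls. The sinusoidal receptor *Fcgr2b* rose by 1.46 (SE 0.18) and *Wnt2*, a growth signal of sinusoids, changed by -0.83 ± 0.12. *Krt19* was the only one of 9 cholangiocyte markers past the threshold (0.55 ± 0.15). It was highest on F20 replicate 3 and lost its call without that array. Of 6 mesothelial markers 1 rose and 2 fell.

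Mitosis and DNA replication genes changed by small amounts in this interval. Of all genes 8.68% rose and 12% fell, and the share of mitosis genes that fell was near the latter. Of 27 mitosis genes 3 fell and 0 rose (median -0.062), and 0 fell without F16 replicate 1, F16 replicate 2 or F20 replicate 4. Of 37 DNA replication genes 11 fell and 0 rose (median -0.15), a larger share of falls than among all genes. The ages did not overlap for 23 of them, against 29.5% of all genes. The falls numbered 6 without F16 replicate 2, 5 without F20 replicate 3 and 3 without F20 replicates 1 and 3. With the 8 arrays alone *Mcm2* (-0.22, adjusted p = 0.0268) and *Rrm2* (-0.21, adjusted p = 0.0345) passed too. *Cdk1*, the mitotic kinase, had levels of 10.33, 10.30, 10.31 and 10.33 on the F16 arrays and 10.20, 10.27, 10.29 and 10.30 on the F20 arrays, and *Top2a*, the topoisomerase of dividing cells, had levels of 11.67, 11.54, 11.61 and 11.54 on the F16 arrays and 11.58, 11.57, 11.60 and 11.59 on the F20 arrays. Neither passed and both overlapped. Of 18 genes of cell cycle entry and arrest 2 rose and 5 fell (median -0.06). *Ccnd1*, a cyclin that responds to growth factors, had levels of 10.24, 10.21, 10.15 and 10.32 on the F16 arrays and 9.38, 9.32, 9.16 and 9.09 on the F20 arrays, a change of -0.99 ± 0.26 (SE, adjusted p = 0.00937), and *Ccnd2* (-0.70 ± 0.13) and *Mycn* (-0.71 ± 0.094) fell. Of 54 cytosolic ribosome genes 3 rose and 4 fell, and 1 rose on leaving out any one array other than F20 replicate 1, while 1 fell without F16 replicate 2 or F20 replicate 4.

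The mitochondrial machinery outside fat oxidation was close to level. Of all genes 8.68% rose and 12% fell, and the counts for complex I, coenzyme Q synthesis and the mitochondrial ribosome's falls lay near these shares. Of 33 complex I genes 3 rose, of 12 genes of complexes II and III and cytochrome c 2 rose, of 18 complex IV genes 0 passed limma's adjusted p (4 had an unadjusted p under 0.05) and of 17 ATP synthase genes 4 rose, with medians of 0.051, 0.096, 0.02 and 0.14. The ATP synthase count fell to 1 without F16 replicate 1 or 3 or F20 replicate 3 or 4. *Ndufa1* (0.47 ± 0.12) and *Ndufa2* (0.40 ± 0.094), small subunits of complex I, rose. Of 24 citric acid cycle and pyruvate genes 7 rose and 1 fell (4 rose without F16 replicate 1, F20 replicate 2 or F20 replicate 4), among them *Pdk4*, which restrains pyruvate oxidation, with levels of 5.57, 5.86, 5.52 and 5.84 on the F16 arrays and 6.64, 6.84, 6.54 and 6.95 on the F20 arrays (change 1.05 ± 0.24). Of 67 mitochondrial ribosome genes 2 rose and 6 fell, and of 27 import and chaperone genes 1 rose and 6 fell. The falls numbered 3 for the ribosome without F16 replicate 2, and 2 for import without F20 replicates 1 and 3. Among 12 genes of coenzyme Q synthesis 1 rose. *Coq8a*, an atypical kinase that supports the synthetic complex, had levels of 7.62, 7.46, 7.63 and 7.50 on the F16 arrays and 8.32, 8.37, 8.17 and 8.07 on the F20 arrays, a change of 0.68 ± 0.11 (SE, adjusted p = 0.000151). The changes of the other 11 genes lay between -0.10 (*Coq4*) and 0.24 (*Coq10b*), none past the threshold. *Ppargc1a*, a coactivator of mitochondrial biogenesis, changed by 0.50 ± 0.31 and *Tfam*, which packs mitochondrial DNA, by -0.11 ± 0.067, neither past the threshold. With the 8 arrays alone *Ppargc1a* passed (adjusted p = 0.00223).

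These changes were set beside those of the following interval. That interval, F20 to F22, is shorter than F16 to F20, and changes are given over each whole interval, not per day. From F20 to F22, 5205 genes passed (35.9%), of which 2182 rose (15%) and 3023 fell (20.8%). Both intervals share the F20 arrays, so that the difference between the changes was tested as a contrast of its own, and it was above 0 for 1258 genes (8.67%) and below 0 for 1002 (6.91%). *Cps1* rose less from F20 to F22 (0.67, difference 3.97 ± 0.22, adjusted p = 9.5e-10). *Fabp1* (0.23), *Bhmt* (0.046) and *Gys2* (0.072) did not pass from F20 to F22, and for each the difference did. Several genes that did not pass from F16 to F20 rose from F20 to F22. *Hamp* changed by 4.62 (adjusted p = 4.7e-15), *Tat* by 3.79 (adjusted p = 1.3e-05), *Cyp7a1* by 3.04 (adjusted p = 1.7e-06) and *Cpt1a* by 1.93 (adjusted p = 3.1e-07), each with a difference that passed. *Pck1* changed by 1.02, but its difference did not pass (adjusted p = 0.0993).

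Gene groups shifted in the same comparison. Of 27 mitosis genes 27 fell from F20 to F22 and for 21 the difference passed. Of 37 DNA replication genes 35 fell (difference for 20), of 18 erythroid markers 17 fell (difference for 9) and of 12 haem synthesis genes 10 fell (difference for 8). Of 19 cholesterol synthesis genes 11 fell in this interval, with a difference for 8. Megakaryocyte markers turned upward, 6 of 9 rising and 7 with a difference. Macrophage markers rose in both intervals, 16 and then 18 of 18, with a difference for 1 gene above 0 and for 1 below. Of 28 plasma proteins the difference was above 0 for 9 and below 0 for 6. Of 31 complement and coagulation factors it was above 0 for 6 and below 0 for 7. The shares of all genes were 8.67% above and 6.91% below. Endothelial markers rose late, 14 of 19, with a difference for 8.

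**Figure D4:**
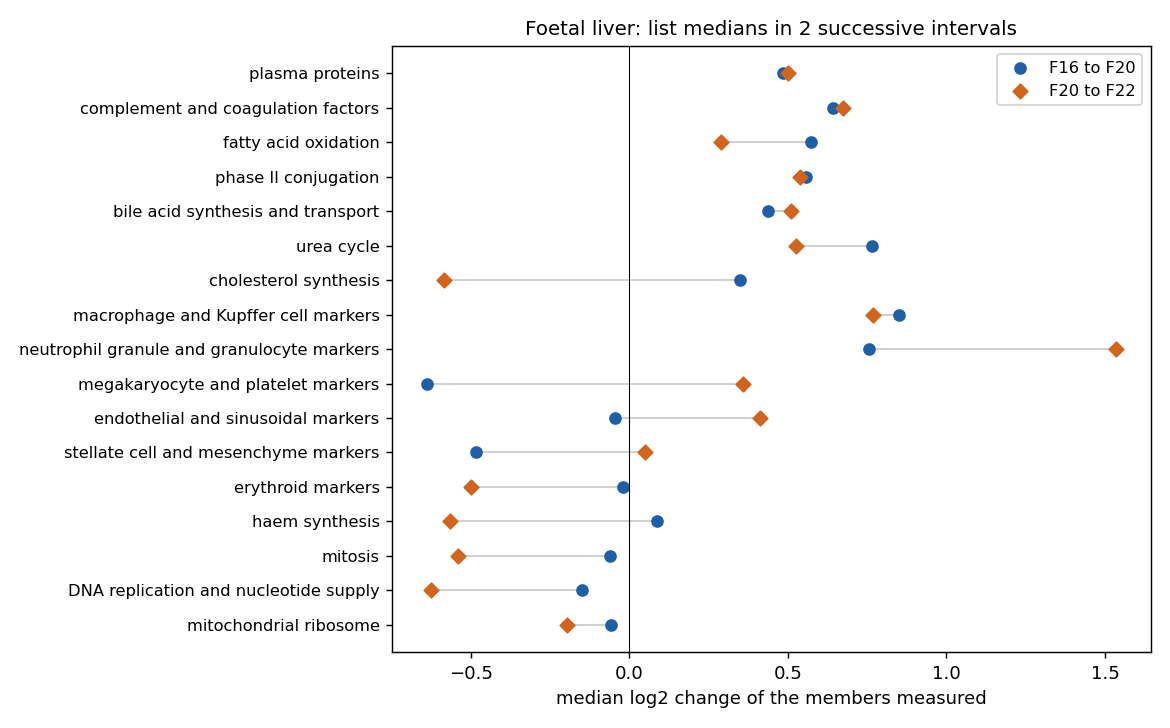
Median log2 change of the measured members of 17 gene lists from F16 to F20 and from F20 to F22. The second interval is the shorter, and changes are not per day. Plasma protein, complement and macrophage medians are alike in both intervals, whereas the cholesterol, erythroid, haem, mitosis and replication medians are above -0.15 at first and lie between -0.50 and -0.63 later.

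The 5 highest and 5 lowest changes of liver without overlap were then set against skeletal muscle of the same ages, with 5 muscle arrays an age. Across all genes the change in liver differed from that in muscle for 4780 (33%), a comparison made on changes only because the tissues had been normalised apart. The difference passed for 8 of the 10 genes tested by name. These genes were chosen by the liver change that enters the difference, which favoured passing, so that the count has no weight of its own. *Cps1* changed by 0.27 in muscle (difference 4.37 ± 0.21, adjusted p = 1.5e-19), and *Hp*, *Fabp1* and *Slc17a1* by 0.055, 0.048 and -0.0052, none of them past the threshold in muscle. *Car12* rose in muscle as well, by 1.58, and less than in liver (difference 2.34 ± 0.34). *Postn* rose in muscle by 0.89 while it fell in liver (difference -2.71 ± 0.46, adjusted p = 1.0e-05). *Asb4* (-0.12) and *Abcb1b* (0.038) did not pass in muscle, and their differences did. *Vof16* and *Sfrp1* fell in both tissues, in muscle by 1.49 and 1.28, and the differences of -0.42 and -0.33 did not pass.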

How the data were processed

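Livers of F16 and F20 foetuses (4 arrays each) were analysed from the deposited log2 values, which the authors had made by robust multi-array averaging (RMA) of GeneChip Rat Gene 1.0 ST arrays, each tissue apart. Per the submitters' processing notes the tool was Affymetrix Expression Console (version not given in the sources used here). RMA shrinks changes of dim probe sets. Of 29214 probe sets, 15310 with 1 gene symbol in the platform annotation were kept (323 had several, 13581 none), giving 14506 genes, each taken from its probe set of highest mean level over the liver arrays.

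Values were fitted in R 4.3.3 with limma 3.58.1 over the 20 liver arrays of F16, F20, F22, P1 and P4 (15 residual degrees of freedom), and liver was compared with muscle in a fit of 45 arrays. Figures were drawn with matplotlib 3.10.9. On simulated data the fit over 15310 probe sets recovered 91%, 94% and 100% of log2 changes of 0.5, 1 and 2, with 6 false calls. There 200 probe sets were changed, and noise was normal, independent and of the same SD in all groups, without signal of other tissues. These figures therefore need not hold for the real arrays. The methods name an unadjusted p of 0.05, run here as an alternative.

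The arrays and 51 gene lists were chosen with earlier results of these data known, and markers of other tissues after some of their values had been seen. Described genes were the 15 highest and 15 lowest changes past the threshold without overlap, starred genes of each list with up to 6 of its largest changes, and coenzyme Q genes. Other genes named (muscle, intestinal and pancreatic markers, *Mat2a* and *Gstp1*) were chosen after their values were seen. Lists are described by counts and medians, without a test. Alternatives covered the arrays fitted, the prior, weights, normalisation, dim probe sets, probe set averaging, a replicate block and each array left out.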

Additional observations from a re-analysis of the deposited data

Results flagged for a closer look

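Among 313 genes described or held as examples, 626 groups of 4 arrays were checked for an array that stood apart from the other 3 by Dixon's ratio, and 29 groups had one, 9 at F16 and 20 at F20. Chance marks about 1 in 20 groups. All values are log2 levels. F16 replicate 1 was highest for *Hjv* (8.08 against 8.05 to 8.05). F16 replicate 2 was highest for *Mcm2* (11.66 against 11.55 to 11.57), *Rrm2* (12.57 against 12.33 to 12.37), *Cdt1* (10.13 against 9.91 to 9.94), *Uqcrq* (10.91 against 10.70 to 10.73) and *Pdss2* (8.50 against 8.31 to 8.33). F16 replicate 3 was highest for *Lcn2* (7.52 against 7.17 to 7.23). F16 replicate 4 was lowest for *Ass1* (9.96 against 10.14 to 10.17) and *Coq9* (8.63 against 8.77 to 8.80). F20 replicate 1 was highest for *Itm2a* (8.97 against 8.44 to 8.50) and *Reln* (10.29 against 10.12 to 10.14). F20 replicate 1 was lowest for *Apoh* (12.56 against 12.58 to 12.58), *Atp5mc1* (10.45 against 10.56 to 10.57) and *Tfam* (8.70 against 8.83 to 8.85). F20 replicate 2 was highest for *Nr1i2* (9.49 against 9.15 to 9.17), *Meg3* (11.81 against 11.58 to 11.61), *Mt1* (13.82 against 13.76 to 13.77) and *Alas2* (12.95 against 12.84 to 12.85). F20 replicate 3 was highest for *Nnat* (8.51 against 8.05 to 8.12), *Col4a1* (7.86 against 7.72 to 7.73) and *Krt19* (8.98 against 8.38 to 8.48). F20 replicate 3 was lowest for *C3* (12.85 against 12.96 to 12.98), *Cebpa* (8.35 against 8.51 to 8.54), *Slc10a1* (9.52 against 10.17 to 10.27), *Hmox1* (8.89 against 9.12 to 9.12), *Mpo* (10.39 against 10.73 to 10.79), *Lyve1* (10.51 against 10.63 to 10.65) and *Tomm34* (8.32 against 8.47 to 8.50). F20 replicate 4 was highest for *Klkb1* (10.34 against 9.83 to 9.91). F20 replicate 3, which carried the gut and pancreas markers, was thus low for 7 genes and high for 3, and the part of other tissue in this was not tested.

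The change from F16 to F20 differed between liver and skeletal muscle for 8 of 10 genes, the 5 highest and 5 lowest changes of liver without overlap between the ages, by limma's contrast of both changes. Being chosen by the liver change, these genes were favoured to pass. Liver minus muscle was 4.37 for *Cps1*, 2.34 for *Car12*, 3.29 for *Hp*, 3.06 for *Fabp1*, 2.95 for *Slc17a1*, -1.76 for *Asb4*, -2.71 for *Postn* and -1.69 for *Abcb1b* on the log2 scale.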

How the results depend on the processing

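Of the 313 named genes, no called one changed direction under any setting run, although calls were lost. Genes rose and fell in numbers of 1679 and 2093 with the 8 arrays alone, 1367 and 1926 with all 24 liver arrays, 1158 and 1340 among bright probe sets, 1267 and 1737 with a trended robust prior, 1304 and 1656 after repeated quantile normalisation, 1342 and 1320 after centring on array medians, and 1260 and 1732 with probe sets averaged. At an unadjusted p of 0.05, 2799 genes and 2938 probe sets fell, and with array weights 2803 and 2944. Replicate numbers did not pair the arrays (correlations of deviations between same-numbered arrays -0.014, 0.10, -0.082 and -0.18), and a replicate block gave 1235 rises and 1680 falls with no list median moved beyond its spread, 8 named genes losing and 2 gaining a call. Leaving out 1 array at a time gave 997 to 1175 rises and 1283 to 1497 falls (1027 to 1202 and 1345 to 1561 probe sets). Over these the list medians that moved by more than 1 SD ranged from 0.44 to 0.53 for peroxisomal enzymes, from 0.14 to 0.35 for phase I drug metabolism, from 0.50 to 0.61 for phase II conjugation, from -0.34 to -0.22 for foetal RNA-binding, HMGA and imprinted genes, from 0.10 to 0.16 for antioxidant defence and metallothionein, from -0.21 to -0.11 for blood stem and progenitor markers, from 0.13 to 0.28 for B-cell precursor markers, from 0.23 to 0.46 for mast cell markers, from -0.090 to -0.045 for endothelial and sinusoidal markers, from -0.27 to -0.17 for mesothelial markers and from -0.18 to -0.12 for DNA replication and nucleotide supply. Other settings moved list medians too. Among bright probe sets the medians were 0.54 for plasma proteins, 0.43 for hepatocyte transcription factors, 0.50 for amino acid breakdown, 0.39 for fatty acid and triglyceride synthesis, 0.82 for bile acid synthesis and transport, 0.88 for phase II conjugation, 0.49 for hormone receptors and responsive genes, -0.25 for blood stem and progenitor markers, 0.12 for B-cell precursor markers, 1.05 for T and NK cell markers, 1.08 for neutrophil granule and granulocyte markers, 0.64 for mast cell markers and 0.046 for complex IV, and those of globins (0.043) and mesothelial markers (0.75) turned upward with fewer genes tested. They were 0.24 for phase I drug metabolism, -0.22 for foetal RNA-binding, HMGA and imprinted genes and 0.10 for antioxidant defence and metallothionein with array weights, -0.066 for cytosolic ribosome after quantile normalisation, and -0.034 for cell cycle entry and arrest, -0.021 for cytosolic ribosome and 0.046 for complex IV after centring. The following were chosen after the data had been seen. The 12 arrays of F16, F20 and F22 gave 1600 rises and 2182 falls. Without F20 replicates 1 and 3, 1034 genes rose and 1091 fell (1144 probe sets), 39 named genes lost their call, and medians were 0.31 for hepatocyte transcription factors, 0.41 for glycogen metabolism, 0.31 for hormone receptors and responsive genes, -0.36 for foetal RNA-binding, HMGA and imprinted genes, 0.94 for neutrophil granule and granulocyte markers and 0.0078 for mitochondrial import and chaperones. Without F16 replicate 4 and F20 replicate 3, 964 genes rose and 1150 fell (1210 probe sets), 41 named genes lost their call, and medians were 0.42 for glycogen metabolism, 0.18 for phase I drug metabolism, -0.18 for foetal RNA-binding, HMGA and imprinted genes, -0.10 for blood stem and progenitor markers, 0.32 for B-cell precursor markers, -0.18 for DNA replication and nucleotide supply and 0.064 for complexes II and III and cytochrome c. F16 replicate 2 against F20 replicates 2 and 4, where the lone F16 array was assumed to vary like the other groups, gave 361 rises and 203 falls (366 and 211 probe sets), 150 named genes lost their call, and medians were 0.61 for urea cycle, 0.43 for gluconeogenesis, 0.47 for glycogen metabolism, -0.098 for glycolysis and sugar entry, 0.40 for methionine, choline and one-carbon metabolism, 0.50 for fatty acid oxidation, 0.58 for peroxisomal enzymes, 0.18 for phase I drug metabolism, 0.46 for phase II conjugation, 0.31 for hormone receptors and responsive genes, -0.14 for foetal RNA-binding, HMGA and imprinted genes, 0.12 for iron handling, -0.0078 for blood stem and progenitor markers, -0.50 for megakaryocyte and platelet markers, 0.32 for B-cell precursor markers, 0.016 for T and NK cell markers, 1.09 for neutrophil granule and granulocyte markers, -0.098 for endothelial and sinusoidal markers, -0.0063 for collagens and matrix, -0.16 for mesothelial markers, -0.13 for mitosis, -0.19 for DNA replication and nucleotide supply, -0.088 for cell cycle entry and arrest, -0.069 for cytosolic ribosome, 0.0011 for complex I, 0.037 for citric acid cycle and pyruvate use and -0.13 for mitochondrial ribosome, with reversals for ketone body synthesis and use (-0.049) and complex IV (-0.033). The cause of these shifts was not tested. All 10 differences between tissues kept their direction and side of the threshold with 18 arrays or after centring. With 4 arrays an age, precision is limited by their number.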
